A study of Mus musculus with 4 samples.

Results

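Bcl2l13, Carhsp1 and Tor1b are the 3 protein-coding genes described here, of 21951 searched. They were chosen by the density of distinct MILI-bound sequences on both strands of their transcripts, so these densities are a description and no test. Their sequences were those that matched, whole and exactly, a transcript of that gene and of no other gene. There were 5907 of them in a list of 4906138, namely 2697 for Bcl2l13, 1589 for Carhsp1 and 1621 for Tor1b. The list came from small RNAs immunoprecipitated with MILI from 14 dpp testes (C57BL/6 strain), in 2 Tdrd9-/- libraries and 2 heterozygous Tdrd9+/- libraries, where Tdrd9 encodes a helicase of the piRNA pathway. Before sequencing, RNAs were eluted from a gel at about 28 to 30 nt. The labels do not say whether the 2 libraries of a genotype came from separate animals. The list pools all 4 libraries and gives each distinct sequence once, without counts, so the depth of each library is unknown, no error between replicates can be given and the genotypes were not compared. Intervals are exact Clopper-Pearson 95% intervals, or are converted from them for pairing ratios. They cover counting error only, over distinct ends or, for the pairing ratios, over pairs of ends.

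MILI (Piwil2) is a PIWI protein of male germ cells that carries piRNAs and cuts RNAs complementary to them. When a piRNA guides such a cut, the new 5′ end on the opposite strand lies 10 nt from the 5′ end of the guide. A primary piRNA usually begins with U, and its slicing partner then has A at position 10. Sense ends at marker genes of testis cell types are given as a description. Sequences bound by a germ cell protein cannot show which cells the tissue held. All 5 male germ cell markers had 10 or more sense ends (67 to 292), whereas 1 of 3 Sertoli cell markers did (5 to 20), and the 3 Leydig cell markers were at 0. Over all protein-coding genes, 55% had 10 or more sense ends.

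The sequences below show the 10-nt pairing that the results turn on. They are the 2 pairs of Bcl2l13, the 2 of Carhsp1 and the 1 of Tor1b with the most distinct sequences at the end that had fewer, ties going to the pair with more sequences in all, each end shown by its longest sequence of up to 30 nt, 5′ to 3′. Capitals mark the first 10 bases, which are complementary between antisense and sense.
Bcl2l13 antisense 1: TGCTAAATCAtaggcacgtggggtggct
Bcl2l13 sense 1: TGATTTAGCAatgacacctctgatggcatc
Bcl2l13 antisense 2: TCTGTATTCAgcagactgggtacttagcct
Bcl2l13 sense 2: TGAATACAGAaacctaaggaacaagcttt
Carhsp1 antisense 1: TGCATGTAGAaaccagaagacaacacgttt
Carhsp1 sense 1: TCTACATGCAtgagaacacaaaaaaatatg
Carhsp1 antisense 2: ACAGATTGTAgcctaggctggcctagaat
Carhsp1 sense 2: TACAATCTGTtaaaacaagggctggggat
Tor1b antisense 1: TCTTCACGTGtttgtactccaagggcagga
Tor1b sense 1: CACGTGAAGAtgtgtgtgcgggcagag

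In mm9, the Bcl2l13 pairs lie at chr6:120838410-120838437 (minus) with chr6:120838428-120838457 (plus), and at chr6:120841184-120841213 (minus) with chr6:120841204-120841232 (plus). Both are in the 3′ UTR, where the sense ends stand at nt 2493 and 5269 of the transcript. The Carhsp1 pairs lie at chr16:8659282-8659311 (plus) with chr16:8659262-8659291 (minus), and at chr16:8660217-8660245 (plus) with chr16:8660198-8660226 (minus). Their sense ends stand at nt 2240 and 1305, also in the 3′ UTR. The Tor1b pair lies at chr2:30812389-30812418 (minus) with chr2:30812409-30812435 (plus). Its sense end stands at nt 913, in the coding sequence. The 4 ends of Bcl2l13 all begin with U (T in the letters) and have A at position 10. In the second Carhsp1 pair the sense end begins with U and the antisense end does not, and in the Tor1b pair the antisense end begins with U and the sense end does not.

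Carhsp1, which encodes a cold-shock domain protein that binds RNA, had the highest density on both strands of the 3 genes. It had 541 antisense and 1048 sense sequences, at 279 antisense and 500 sense 5′ ends. Per kb of its 2858-nt transcript this was 97.6 antisense ends and 175 sense ends. Its sequences lay between positions 8658695 and 8664461 of chromosome 16 (minus strand gene), except for 3 sequences listed on another chromosome. Bcl2l13, which encodes a BCL2-like protein of the outer mitochondrial membrane that acts in mitophagy, had 789 antisense and 1908 sense sequences, at 468 antisense and 968 sense ends. That gave 67.6 antisense and 139.8 sense ends per kb of its 6925-nt transcript. The Bcl2l13 sequences lay between positions 120786263 and 120842825 of chromosome 6 (plus strand gene). Tor1b encodes torsin 1B, an ATPase of the lumen of the endoplasmic reticulum and nuclear envelope. It had 437 antisense and 1184 sense sequences, at 275 antisense and 636 sense ends. These ends of all its transcripts, divided by the length of the longest (4775 nt, with a retained intron), gave 57.6 antisense and 133 sense ends per kb. On its coding transcript of 3039 nt alone there were 218 antisense and 489 sense ends, or 71.7 and 160.9 per kb. The Tor1b sequences lay between positions 30808533 and 30814533 of chromosome 2 (plus strand gene).

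Sense ends outnumbered antisense ends in all 3 genes. Antisense ends made up 32.6% (30.2–35.1%) of the ends of Bcl2l13, 35.8% (32.4–39.3%) of those of Carhsp1 and 30.2% (27.2–33.3%) of those of Tor1b, against 5.61% over all protein-coding genes. Among 157 protein-coding genes with 50 or more ends on each strand, the median density was 19.1 antisense and 37.3 sense ends per kb. Ordered by the lower of their 2 strand densities, Carhsp1 was 1, Bcl2l13 was 2 and Tor1b was 4 of the 157. This order divides by the longest transcript. On its coding transcript Tor1b had 71.7 antisense ends per kb, above the 67.6 of Bcl2l13. The gene between Bcl2l13 and Tor1b in this order, Bud31, a splicing factor gene, had 60 antisense and 133 sense ends on a 928-nt transcript. Lengths were alike on the strands: antisense and sense sequences averaged 27.2 ± 1.41 and 27.1 ± 1.46 nt in Bcl2l13, 27.2 ± 1.47 and 27.1 ± 1.53 nt in Carhsp1, and 27.2 ± 1.26 and 26.9 ± 1.36 nt in Tor1b (SD over sequences).

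**Figure D1:**
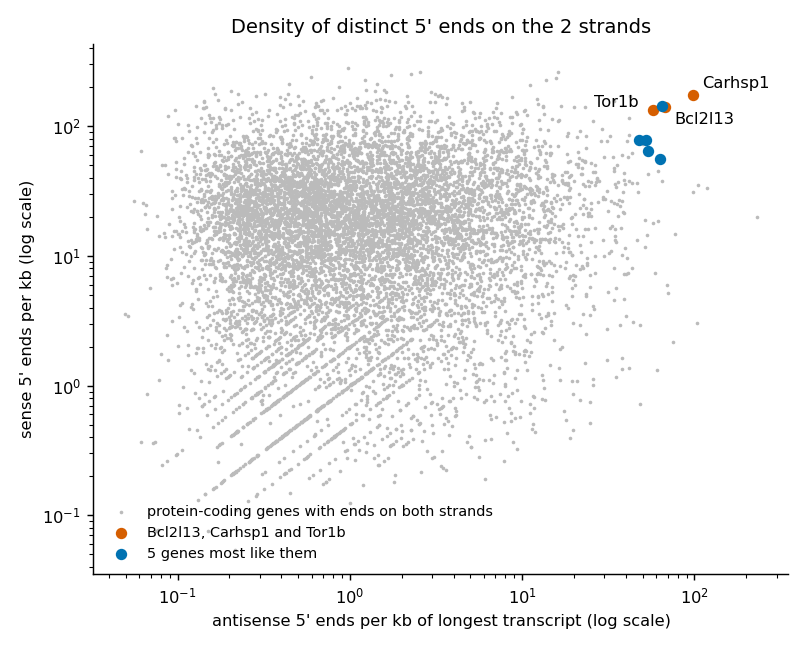
Density of distinct antisense (x axis) and sense (y axis) 5′ ends, in ends per kb of longest transcript and on log scales, for protein-coding genes with ends on both strands. Carhsp1 (97.6 and 175), Bcl2l13 (67.6 and 139.8) and Tor1b (57.6 and 133) lie in the upper right corner beside the 5 genes most like them.

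Antisense ends lay mainly in the 3′ UTR of each gene, which makes up 78.7% of the transcript in Bcl2l13, 82.6% in Carhsp1 and 64.6% in Tor1b. No repeat annotation was used, so whether these ends or the printed pairs lie in repeats was not looked at. On the transcript with the longest coding sequence, the 3′ UTR of Carhsp1 held 278 of 279 antisense ends (99.6%, 98.02–99.99%) and 476 of 500 sense ends (95.2%, 92.9–96.9%). The 3′ UTR of Bcl2l13 held 451 of 468 antisense ends (96.4%, 94.2–97.9%) and 751 of 960 sense ends (78.2%, 75.5–80.8%). Its coding sequence therefore had 13.03 antisense but 158 sense ends per kb. Tor1b differed, with 25.2% (19.6–31.5%) of its antisense ends and 33.3% (29.2–37.7%) of its sense ends in the coding sequence. This gave 54.4 antisense and 161 sense ends per kb of Tor1b coding sequence, beside 83.1 antisense and 164 sense ends per kb of its 3′ UTR. These Tor1b values cover the 218 antisense and 489 sense ends on that transcript, of 275 and 636 in the gene. The other ends, which match only other transcripts of Tor1b, are left out of them. The 5′ UTRs held 0 antisense ends in each gene, where 0 of 468, 279 and 218 ends on these transcripts allows shares of up to 0.785%, 1.31% and 1.68% (upper bound of the exact interval). They are short, at 169 nt in Bcl2l13, 50 nt in Carhsp1 and 66 nt in Tor1b, and held only 3, 1 and 5 sense ends.

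Most of each transcript held ends of both strands. The genes were chosen for such ends, so the shares of bins are a description, and no expected share was computed. Of the 100-nt bins of the transcript, 53 of 70 in Bcl2l13, 20 of 29 in Carhsp1 and 28 of 31 in Tor1b held ends of both strands. Bins with antisense ends alone numbered 0, 2 and 0, bins with sense ends alone 11, 6 and 3, and bins without ends 6, 1 and 0. Sequences that match another gene too, or only other transcripts of the same gene, do not enter these bins. In Bcl2l13 the median antisense end lay at nt 4421 and the median sense end at nt 2838.5. In Carhsp1 the medians were nt 1957 for antisense and nt 1615.5 for sense, and in Tor1b nt 1720 for antisense and nt 1678 for sense.

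**Figure D2:**
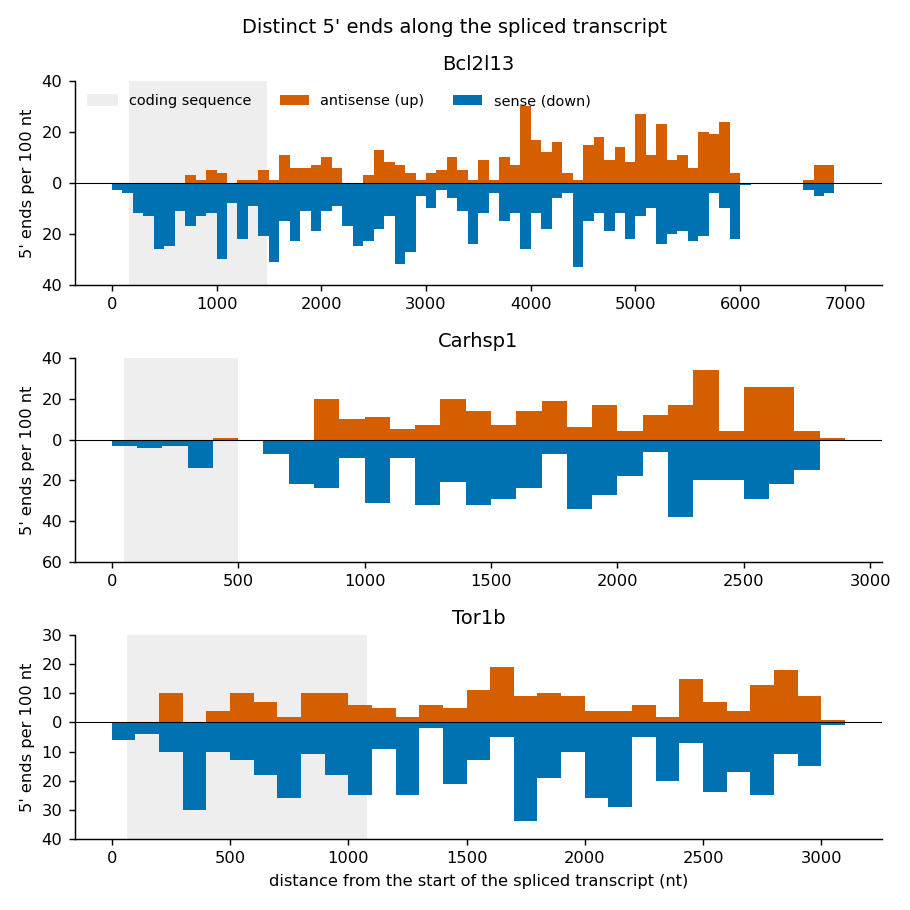
Distinct antisense (upward) and sense (downward) 5′ ends per 100 nt along the spliced transcript with the longest coding sequence, with the coding sequence shaded. Antisense ends lie mostly in the 3′ UTR, with stretches at 0 within that of Bcl2l13 and at the start of that of Carhsp1, and in Tor1b they lie in the coding sequence too. Sequences that match another gene too are left out, so a stretch at 0 need not lack listed ends. With all listed sequences, the last windows of 500 bp before the last sense sequence of Bcl2l13 held 46 and 38 antisense ends. They held 43 and 43 sense ends.

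Each of the 3 genes has an opposite-strand protein-coding gene tail to tail with it in the annotation, their 3′ ends lying within 5 kb of each other. Such a neighbour was present for 21.4% of the 21951 protein-coding genes and for 55.4% of the 157 genes with 50 or more ends on each strand. The neighbour of Bcl2l13 is Bid, a pro-apoptotic BH3-only gene, whose annotated end overlaps that of Bcl2l13. The neighbour of Carhsp1 is Pmm2, a phosphomannomutase gene of protein glycosylation, and these also overlap. The neighbour of Tor1b is its paralogue Tor1a, which ends apart from it. The neighbours carried MILI-bound sequences of their own: Bid had 1 antisense and 110 sense ends, Pmm2 8 antisense and 229 sense ends, and Tor1a 18 antisense and 83 sense ends. Another 108 antisense and 92 sense sequences of Bcl2l13 match Bid too, and 41 sense sequences of Carhsp1 match another gene. They do not enter the values of either gene.

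The strand antisense to each gene also carried ends beyond the gene. In the 5 kb after the last sense sequence of Bcl2l13 there were 105 ends on the antisense strand and 3 on the sense strand. After Carhsp1 there were 131 antisense and 25 sense ends. After Tor1b there were 193 antisense and 138 sense ends, so both strands held ends there. Many of the downstream ends match other transcripts. In the 20 kb downstream this held for 110 of 258 antisense-strand ends at Bcl2l13, 114 of 205 at Carhsp1 and 120 of 427 at Tor1b. In the 20 kb upstream of the genes the antisense and sense strands held 23 and 10 ends for Bcl2l13, 81 and 8 for Carhsp1, and 68 and 7 for Tor1b. Within the mm9 span of Carhsp1, 455 ends lay on the antisense strand, of which 279 matched its spliced transcript alone, 102 matched another transcript and 74 matched none. On the sense strand of that span, 499 of 500 ends were those of Carhsp1. Whether the antisense ends come from transcripts of the neighbours was not tested.

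**Figure D3:**
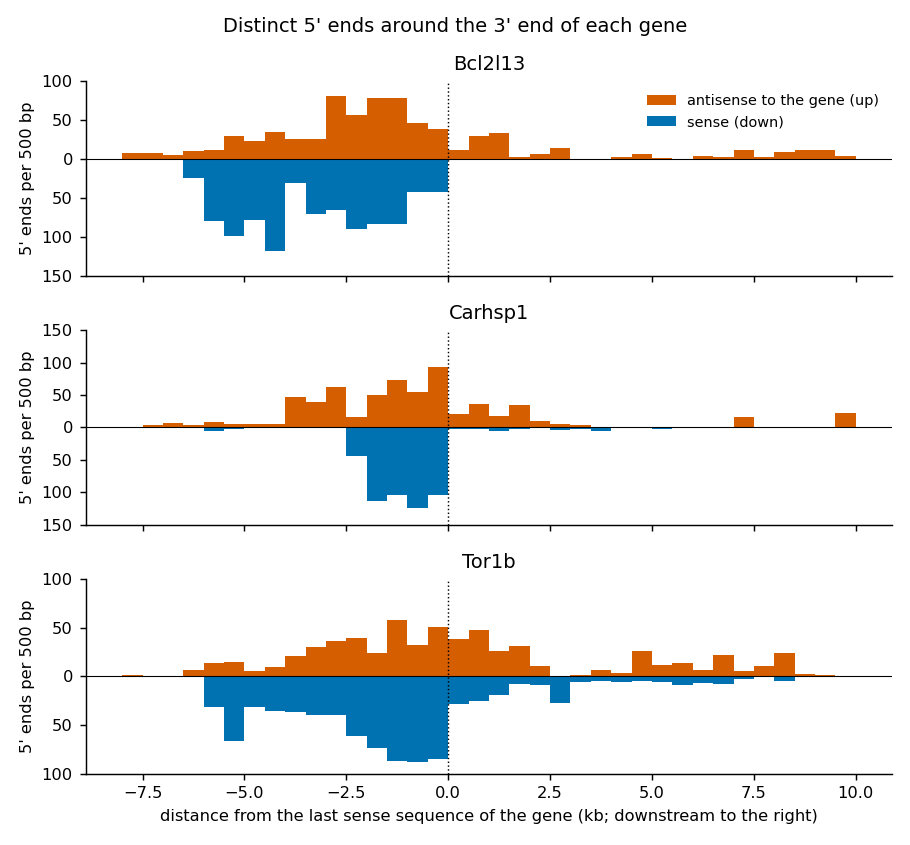
Distinct 5′ ends per 500 bp on the antisense (upward) and sense (downward) strand by distance from the last sense sequence of each gene, all listed sequences included, with downstream to the right. Past the 3′ end the antisense strand holds ends beside all 3 genes, counted whether or not they match another transcript. The first 5 kb held 105 antisense and 3 sense ends after Bcl2l13, 131 and 25 after Carhsp1, and 193 and 138 after Tor1b.

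A at position 10 was more frequent at antisense than at sense ends in all 3 genes. In Bcl2l13 it was carried by 44.2% (39.7–48.9%) of antisense and 30.2% (27.3–33.2%) of sense ends, a difference of 14.1 percentage points. In Carhsp1 it was carried by 45.9% (39.9–51.9%) of antisense and 34.6% (30.4–38.95%) of sense ends, a difference of 11.3 points. In Tor1b it was carried by 48.0% (41.96–54.1%) of antisense and 30.97% (27.4–34.7%) of sense ends, a difference of 17.03 points. The adjusted p was 9.76e-06 for Bcl2l13, 0.0169 for Carhsp1 and 2.72e-05 for Tor1b (two-sided Fisher's exact test on distinct ends, Benjamini-Hochberg over 157 genes). Antisense ends were higher in A at position 10 at this threshold in 12.7% of the 157 genes, and the median gene had 32.9% of antisense and 30.5% of sense ends. Ends of 1 gene share their transcript, so these p-values cover counting error only.

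Position 10 also stood out from the other positions of the antisense ends. A at positions 2 to 20 other than 10 averaged 30.97% in Bcl2l13 (highest 33.97%), 30.8% in Carhsp1 (highest 35.1%) and 32.9% in Tor1b (highest 43.3%, at position 4). At sense ends the averages were 26.9%, 26.3% and 27.8%, and position 10 was the highest of positions 2 to 20 only in Carhsp1. The strand antisense to the longest transcript holds 26.9% A in Bcl2l13, 24.3% in Carhsp1 and 26.6% in Tor1b, and the sense strand 23.8%, 23.2% and 22.9%.

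**Figure D4:**
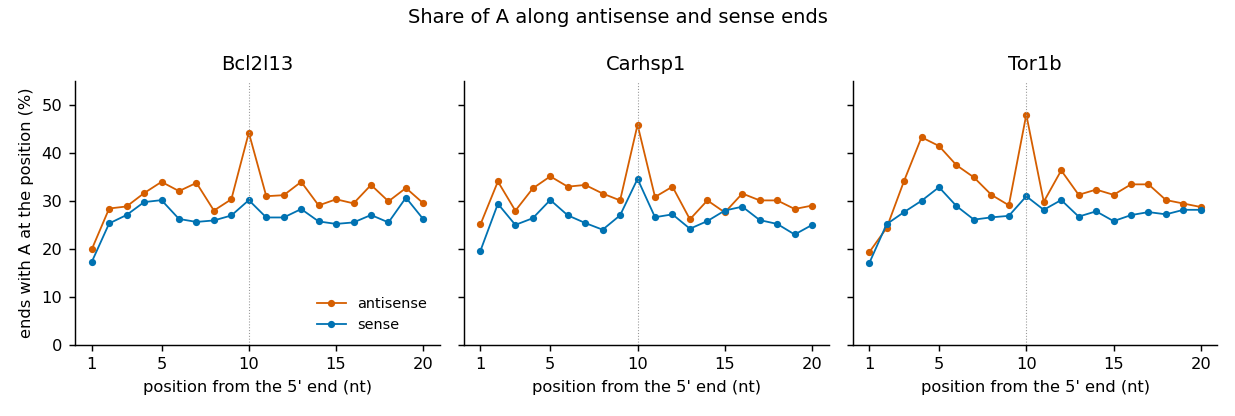
Share of antisense and sense ends with A at each position from the 5′ end, 1 sequence per end. At position 10 the antisense ends reach 44.2% in Bcl2l13, 45.9% in Carhsp1 and 48.0% in Tor1b, above every other position from 2 to 20, against 30.2%, 34.6% and 30.97% at sense ends.

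A 5′ U was more frequent on both strands than U in the transcripts. Ends beginning with U were 51.7% of antisense and 57.5% of sense ends in Bcl2l13, 43.01% and 48.6% in Carhsp1, and 55.3% and 59.1% in Tor1b. The antisense strand of the transcripts holds 23.8%, 23.2% and 22.9% U, and the sense strand 26.9%, 24.3% and 26.6%. The difference, antisense minus sense, was -5.83, -5.59 and -3.85 points, with adjusted p of 0.125, 0.292 and 0.506 (two-sided Fisher's exact test, Benjamini-Hochberg over 157 genes), so no gene passed the test. Counted over distinct sequences in place of ends, this difference was -6.94, -9.75 and -9.12 points and all 3 passed (Fisher's exact test, adjusted p 0.00439, 0.00213 and 0.00506). Sequences at 1 end share their first base, so that count repeats ends as if they were separate. Its p-values are therefore too small and do not replace those over ends. The median of the 157 genes went the other way, with 69.9% of antisense and 61.8% of sense ends, and a 5′ U was lower at antisense ends in 1.27% of them at this threshold.

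Opposite-strand ends overlapped by 10 nt more often than by any other length from 1 to 20 nt in each of the 3 genes. Bcl2l13 had 136 pairs of ends at 10 nt, and 91.9 on average at the other overlaps (76 to 106), a ratio of 1.48 (1.23–1.76, counting error only). Carhsp1 had 111 pairs at 10 nt against 71.1 (55 to 82), a ratio of 1.56 (1.27–1.90). Tor1b had 67 pairs at 10 nt against 41.8 (28 to 63), a ratio of 1.60 (1.23–2.06). These intervals treat pairs as independent, although 1 end can stand in pairs at several overlaps, so they may be too narrow. The next highest overlap was 9 nt in Bcl2l13, where 11 nt held as many, 11 nt in Carhsp1 and 5 nt in Tor1b. The count at 10 nt lay 4.36 SD of the other overlaps above their mean in Bcl2l13, 5.85 in Carhsp1 and 2.71 in Tor1b.

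In each gene the one-sided exact rank test of 10 nt among 20 overlaps gave p = 0.05, the smallest it can give, and the Benjamini-Hochberg adjusted p over 588 genes was 0.403. An adjusted p cannot be lower than the smallest p of 0.05, so no gene could pass whatever its pairs. The adjusted value therefore decides nothing here. In all, 73 genes tied at the smallest p. The 10-nt overlap ranked first in 12.4% of the 588 protein-coding genes with 20 or more pairs. Among 77 other genes with 100 or more pairs, a limit chosen after the values were seen, it ranked first in 35.1%, with a median ratio of 1.45 (0.491 to 2.05). The ratios of the 3 genes thus lie within the range of other genes with many pairs. By number of pairs over overlaps of 1 to 20 nt, Bcl2l13 (1882), Carhsp1 (1462) and Tor1b (862) were the fullest protein-coding genes and held 10.4% of all pairs in the 588 genes. Density chose them, so these numbers of pairs are a description.

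**Figure D5:**
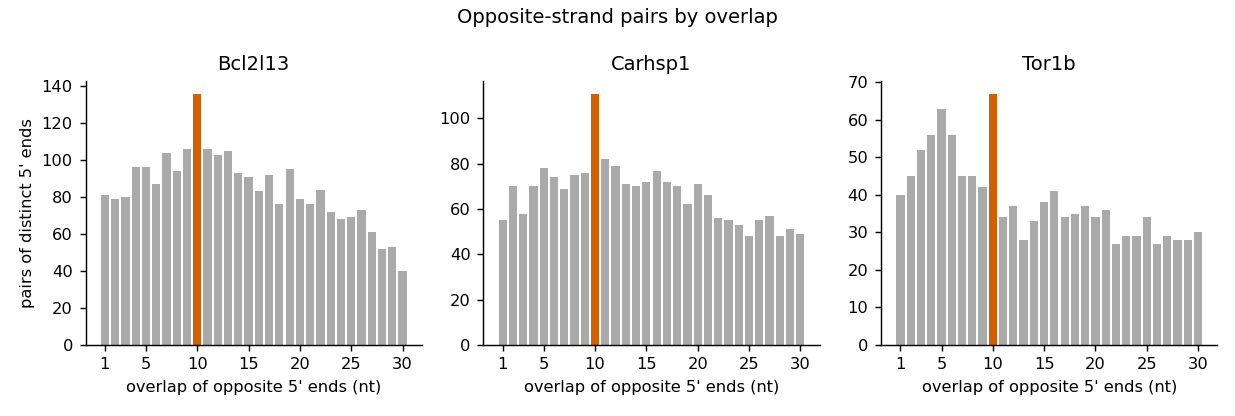
Pairs of distinct opposite-strand 5′ ends by the length of their overlap, from 1 to 30 nt, with 10 nt in colour. The 10-nt bar is the highest in each gene, at 136 pairs in Bcl2l13, 111 in Carhsp1 and 67 in Tor1b, where the 5-nt bar follows at 63.

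Antisense ends had a sense partner at 10 nt more often than sense ends had an antisense one, since sense ends were more numerous. The antisense share was 29.1% (24.98–33.4%) in Bcl2l13, 39.8% (33.998–45.8%) in Carhsp1 and 24.4% (19.4–29.9%) in Tor1b, against 19.6%, 25.5% and 15.2% at the average other overlap. Of the sense ends, 14.05% in Bcl2l13, 22.2% in Carhsp1 and 10.5% in Tor1b had an antisense partner at 10 nt, against 9.49%, 14.2% and 6.58% at the average other overlap. The 10-nt pairs were spread along the transcripts. They lay in 42 of the 100-nt bins of Bcl2l13, 20 of Carhsp1 and 21 of Tor1b, and the fullest bin held 8.09%, 14.4% and 9.84% of them. In Carhsp1 all 111 pairs lay in the 3′ UTR, in Bcl2l13 129 of 136 did, and in Tor1b 45 of the 61 pairs on its coding transcript did.

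The excess at 10 nt was largest for pairs of a sense end with a 5′ U and an antisense end without it. In Bcl2l13 there were 58 such pairs at 10 nt, and 29.2 on average at the other overlaps from 2 to 20 nt (22 to 37), a ratio of 1.98. In Carhsp1 there were 50 against 21.9 (15 to 27), a ratio of 2.28, and in Tor1b 29 against 13.1 (8 to 21), a ratio of 2.22. Pairs of an antisense end with a 5′ U and a sense end without it had ratios of 1.51, 1.51 and 1.65, with 28, 24 and 14 pairs, and the printed Tor1b pair is of this kind. Both kinds ranked first at 10 nt among 19 overlaps in all 3 genes. Pairs in which both ends began with U had ratios of 1.36, 1.47 and 1.28, and ranked first in Bcl2l13 and Carhsp1 but 6 in Tor1b, where their count reached 28 at another overlap. Pairs without a 5′ U on either strand had ratios of 0.616, 0.731 and 0.847, and 10 nt ranked 18 of 19 overlaps in Bcl2l13, 19 in Carhsp1 and 10 in Tor1b, where it held 4 pairs. No test of these differences between kinds of pair was made.

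The base at position 10 of an end is complementary to the 5′ base of its 10-nt partner, so a split by partner fixes the share of A there and is no test. Antisense ends with a 10-nt partner had A at position 10 in 72.8% of cases in Bcl2l13, 66.7% in Carhsp1 and 73.1% in Tor1b, which are also the shares of their sense partners that begin with U. Antisense ends without such a partner had it in 32.5%, 32.1% and 39.9% of cases. How far the partners account for A at position 10 was not tested.

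Ends with several distinct sequences took part in the pairing. Where both ends had 2 or more sequences, the 10-nt ratio was 2.28 in Bcl2l13 (37 pairs against 16.3), 1.62 in Carhsp1 (36 against 22.2) and 1.93 in Tor1b (12 against 6.21, rank 3 of 20). Where both ends had a single sequence it was 1.24, 1.45 and 1.26, with 36, 25 and 19 pairs, and 10 nt ranked first in Carhsp1 and 4 in Bcl2l13 and Tor1b.

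Pairs of 5′ U ends were also set against the sites that allow them. In Carhsp1 this ended the first rank of 10 nt, whereas in Tor1b it was lost already when both ends had to begin with U. Such a site has U and, at the given overlap, A on the sense transcript. In Bcl2l13 there were 91.5 pairs per 1000 allowed sites at 10 nt, against 67.6 on average from 2 to 20 nt, a ratio of 1.35 with 10 nt first. Carhsp1 had 140.4 against 103.9, a ratio of 1.35 with 10 nt at rank 2 of 19. Tor1b had 71.7 against 55.1, a ratio of 1.30 with 10 nt at rank 5. The highest other overlap held 87.6 pairs per 1000 sites in Bcl2l13, 198.2 in Carhsp1 and 88.3 in Tor1b. The values at 10 nt rest on 41, 24 and 20 pairs.

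The 5 protein-coding genes most like the 3, by the lower of their strand densities and with 50 or more ends on each strand, were Bud31, Exosc4, Polr1c, Pradc1 and Atmin. Exosc4, a subunit gene of the RNA exosome, had 62.9 antisense and 55.7 sense ends per kb. Polr1c, a subunit gene shared by RNA polymerases I and III, had 54.03 and 63.9, Pradc1 52.02 and 79.0, and Atmin, a zinc-finger gene of the DNA damage response, 47.6 and 78.7. Bud31 had 64.7 and 143. Their 10-nt overlap ranked first in Polr1c (7 pairs against a mean of 2.68) and Pradc1 (6 against 3). With ties counted against it, it ranked 2 in Exosc4 (12 against 8.63) and 3 in Bud31 (10 against 6.63) and Atmin (29 against 21.3). A at position 10 was carried by 21.2% to 34.9% of their antisense and up to 35.4% of their sense ends, and the difference passed the test in none of the 5 (adjusted p 0.674 to 1, two-sided Fisher's exact test, Benjamini-Hochberg over 157 genes). Bud31, Polr1c and Pradc1 have a tail-to-tail neighbour within 5 kb, whereas Exosc4 and Atmin do not. The difference in A at position 10 between these 5 genes and the 3 was not tested.

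Antisense ends were also counted in the other genes of the 3 families. Over all protein-coding genes, 9.2% had 10 or more antisense ends and 55% had 10 or more sense ends. Of the 22 other BCL2 family genes, 3 had 10 or more antisense ends and 14 had 10 or more sense ends. These 3 were Bad, with 60 antisense and 33 sense ends, Hrk, with 18 and 495, and Bcl2l12, with 10 and 61. Bad and Hrk are pro-apoptotic BH3-only genes. Of the 6 other torsin genes and torsin cofactors, 4 had 10 or more antisense ends and all 6 had 10 or more sense ends. They were Tor3a, with 72 antisense and 25 sense ends, Tor1a, with 18 and 83, Tor4a, with 14 and 174, and the cofactor gene Tor1aip2, with 11 and 547. Of the 7 other cold-shock domain genes, 0 had 10 or more antisense ends and all 7 had 10 or more sense ends. Lin28a, a regulator of let-7 microRNAs, had 9 antisense and 421 sense ends, the most antisense ends among them.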

How the data were processed

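MILI-bound small RNAs of 4 libraries (2 Tdrd9-/- and 2 Tdrd9+/-) were deposited by the authors as 1 pooled table of sequence, chromosome, start, end and strand, per the file headers. Its values are mm9 positions (build per the submitters' processing notes) and no counts. The aligner and filters were not given in the sources used here, and abundant and rare sequences weigh alike. Sequences of 18 to 36 nt were matched exactly to 141767 GENCODE M21 transcripts in both orientations. That annotation is on GRCm38, and only its sequences, gene order, distances between neighbouring 3′ ends and coding limits were used.

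Ends are distinct 5′ positions. Pairs were counted between distinct ends of a gene at overlaps of 1 to 20 nt. The rank and Fisher's tests were run over all protein-coding genes with 20 pairs, or with 50 ends on each strand. Their p-values were adjusted over those genes and not, as planned, over the 3 genes. The matching and overlap steps were tested on simulated data. The genes, lists and tests were chosen with earlier results of these data known. Named genes were the 3, their neighbours, the 5 most like them, and family genes with 10 or more antisense ends. Lin28a was named after its value was seen. A second Tor1b pair, which tied with the first at the end with fewer sequences, is not reported here. Alternatives changed lengths, unit counted, overlaps, transcript, base composition, recurring ends and the rule for several genes. The tools were numba 0.67.0, numpy 2.4.6, scipy 1.17.1, pandas 2.3.3 and matplotlib 3.10.9 under Python 3.11.15.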

Additional observations from a re-analysis of the deposited data

How the results depend on the processing

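Of 77 alternative values, 68 kept their direction and their side of the threshold or stayed within the counting interval, and 0 reversed. Some of the 68 could not change: in Bcl2l13 and Carhsp1 the longest transcript is also that with the longest coding sequence. The first rank of the 10-nt overlap was lost in 3: in Carhsp1 with 5′ U ends per allowed U and A site (ratio 1.35), in Tor1b with 5′ U ends alone (1.35, rank p 0.3) and in Tor1b with 5′ U ends per allowed site (1.30). These 3 rest on fewer pairs, and the settings per site change both the ends and the scale. Over the other settings the ratio ran from 1.35 to 2.05 in Bcl2l13, from 1.49 to 1.76 in Carhsp1 and from 1.59 to 1.81 in Tor1b. Overlaps of 5 to 15 nt were added after seeing the data. Counting distinct sequences moved the antisense share to 29.3% in Bcl2l13 and 26.96% in Tor1b, and the difference in 5′ U to -6.94, -9.75 and -9.12 points, then past the test in all 3 genes. Counting sequences weights ends by their number of lengths, so it repeats ends and its p-values are too small. With 50-nt bins, 72.1% of Tor1b bins held both strands. The longest Tor1b transcript has no coding limits, so its regions have no second value. Families and neighbours had no alternative. No paired analysis was possible because the table carries no library. Leaving out a library was not possible for the same reason, and how depth limits these values is unknown.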

Other observations

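Tor1b had a second maximum at short overlaps. Its pairs numbered 56, 63 and 56 at overlaps of 4, 5 and 6 nt, beside 67 at 10 nt. Antisense ends of Tor1b had A at positions 4, 5 and 6 in 43.3%, 41.5% and 37.5% of cases, beside 48.0% at position 10. A partner that begins with U fixes A at the position equal to the overlap, so these shares are not separate from the pair counts. The 5-nt pairs on the coding transcript of Tor1b were not piled up at 1 place: they lay in 22 of the 100-nt bins, and the fullest held 10.3% of them. Bcl2l13 had 96, 96 and 87 pairs at these overlaps and 136 at 10 nt, and Carhsp1 70, 78 and 74 and 111 at 10 nt.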
